A study of Homo sapiens with 9 samples.

Results

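S2-028 and S2-020 are sublines of SUIT-2, an established human pancreatic ductal adenocarcinoma (PDAC) cell line. Both carry far less mRNA of SERPINB5, the gene of the serine protease inhibitor maspin, than S2-007, a further SUIT-2 subline. S2-020 carries the least of it, and S2-028 lies clearly above S2-020. Maspin protein is not measured by these libraries. RNA sequencing read counts of the 3 S2-028 libraries were compared with those of the 3 S2-020 libraries over every expressed gene, so 6 of the 9 libraries in the series entered the comparison. The other 3 libraries are of S2-007 and were used only to give its level beside the other lines. The cells of all lines were unmodified, were grown in DMEM with inactivated fetal bovine serum and received no treatment. Each line is a single derivative of one tumour line, so the level of maspin and any other difference between the lines cannot be told apart. The labels do not say whether the 3 libraries of a line came from separate cultures, and p-values therefore measure the spread between libraries, which may be technical.

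The count table held 42717 genes, of which 26031 had enough reads to be tested. S2-020 libraries held 73775302 to 86253923 counted reads and S2-028 libraries 60328748 to 61800271. Pearson's r of log2 CPM (counts scaled by library size) over the tested genes was between 0.98 and 0.984 for pairs of libraries of one line and between 0.939 and 0.941 for pairs across the lines. Levels below are TMM-scaled CPM, which can be compared between libraries but not between genes, since they are not divided by transcript length. Markers of other cell types were low in both lines. The 14 immune markers summed to between 4.26 and 5.66 CPM in the S2-020 libraries and between 4.83 and 5.5 CPM in the S2-028 libraries, with CD3D and TYROBP at 0 in all 6. For 8 endothelial markers the sum was between 10.3 and 12.6 CPM in S2-020 and between 7.92 and 10.4 CPM in S2-028, and for 10 fibroblast markers between 3.82 and 4.78 CPM and between 5.4 and 7.51 CPM. The sum of 15 pancreatic acinar and islet markers was between 2.97 and 3.7 CPM in every library of both lines, with AMY2A at 0.

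Epithelial cells hold together through adherens junctions, tight junctions and desmosomes, and carry a skeleton of keratins. In the epithelial to mesenchymal transition the repressors of the ZEB, SNAI and TWIST families bind E-boxes at epithelial genes, E-cadherin and other junction genes fall, and vimentin, N-cadherin and matrix genes rise. GRHL2, OVOL1 and OVOL2 are transcription factors of the epithelial state, and ESRP1 and ESRP2 direct the epithelial pattern of splicing. PDAC cell lines range from epithelial to mesenchymal along these genes.

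The lines differed at many genes, those of the epithelial state among them. At a Benjamini-Hochberg adjusted p under 0.05 in edgeR's quasi-likelihood test and a change of at least 1.5-fold, 5788 of 26031 genes (22.2%) were differentially expressed genes (DEGs). Of these, 3153 (12.1% of tested genes) were higher in S2-028 and 2635 (10.1%) were higher in S2-020. Counts of called list members given below stand against these shares of tested genes. The large changes lay more often on the side of S2-028, where 926 DEGs were at least 4-fold higher, against 441 on the side of S2-020. The CPM of the S2-028 and S2-020 libraries did not overlap for 5692 of the 5788 DEGs, while this held for 48.6% of all tested genes. Beyond coding genes, 698 of 8244 tested lncRNAs (8.47%) were higher in S2-028 and 357 (4.33%) were higher in S2-020, against 14% and 13.2% of 16639 protein-coding genes. In the plot of fold change against level, members of the junction and other epithelial lists lay mostly above 0 and mesenchymal members mostly below it.

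**Figure D1:**
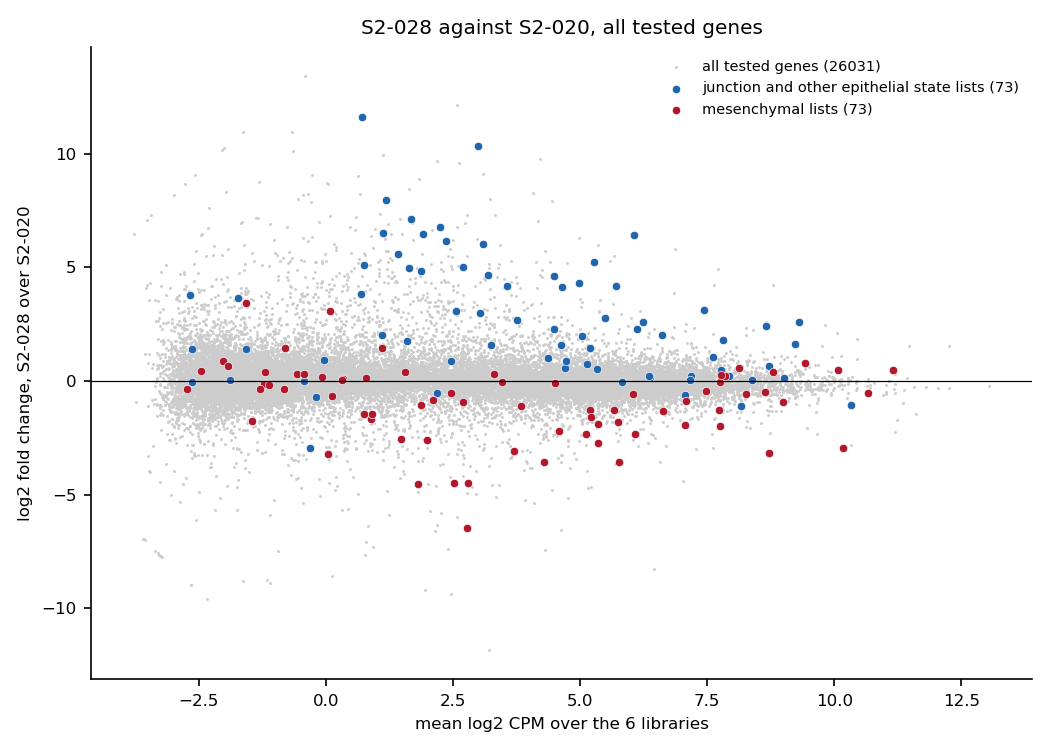
Log2 fold change of S2-028 over S2-020 (y) against mean log2 CPM over the 6 libraries (x). Each point is 1 of 26031 tested genes. Blue points are members of the adherens junction, tight junction and other epithelial lists, and red points are members of both mesenchymal lists. Most blue points lie above 0.

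SERPINB5 itself (chr18:63476958-63505085, GRCh38.p14) was at 6.87, 6.61 and 6.01 CPM in the S2-020 libraries and at 26.4, 25.8 and 30.8 CPM in the S2-028 libraries. The groups did not overlap, and the log2 fold change was 2.08 (SE 0.104, edgeR adjusted p = 3.59e-12). S2-007 stood far above both, with 207 to 225 CPM. Of the 13 clade B serpins listed, 8 were tested, 3 were higher in S2-028 and none was called higher in S2-020. The other called members were SERPINB1, an inhibitor of neutrophil proteases, with a log2 fold change of 0.92, and SERPINB6, with 0.66.

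The regulators of the epithelial state were higher in S2-028. ESRP1 was at 0.775, 0.345 and 0.662 CPM in S2-020 and at 157, 154 and 138 CPM in S2-028, a log2 fold change of 8.0 (SE 0.136, edgeR adjusted p = 4.47e-19). ESRP2 was detected in both lines and changed far less, from 20.9, 19.8 and 25.6 CPM to 45.5, 58.8 and 52.7 CPM. S2-020 therefore kept the mRNA of 1 of the 2 epithelial splicing regulators and had nearly none of the other. GRHL2 was at 14.1, 15.6 and 16.7 CPM in S2-020 and at 171, 159.8 and 162 CPM in S2-028. Its log2 fold change was 3.4 (SE 0.07), and every S2-028 library was above every S2-020 library. OVOL1 and OVOL2, which repress ZEB1 in epithelial cells, had log2 fold changes of 5.38 (SE 0.245) and 4.6 (SE 0.321) and were near the floor of detection in S2-020, with 54 and 32 reads over its 3 libraries. Over the list of 21 epithelial transcription and splicing factors, 20 were tested, 12 were higher in S2-028 and 2 were higher in S2-020, with a median log2 fold change of 1.06 against 0.02 for all tested genes. The exceptions were ELF3, an ETS factor of epithelia, with a log2 fold change of -0.71 (SE 0.0696), and TFAP2C, with -1.91 (SE 0.0875). FOXA2, a pioneer factor of gut and pancreas, rose by 3.49 on the log2 scale.

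ZEB1 moved the other way. This repressor of E-cadherin (chr10:31318417-31529804) was at 77.0, 72.2 and 70.2 CPM in S2-020 and at 15, 12.2 and 15.3 CPM in S2-028, a log2 fold change of -2.37 (SE 0.0836, edgeR adjusted p = 1.76e-14). ZEB2 was low in both lines and lower in S2-028, with a log2 fold change of -1.25 (SE 0.356, edgeR adjusted p = 0.00756). The SNAI genes gave no call. SNAI1 was at 1.3, 0.927 and 0.772 CPM in S2-020 and 0.842, 1.02 and 1.24 CPM in S2-028, so the groups overlapped, and its log2 fold change of 0.04 had a 95% interval from -0.57 to 0.65. SNAI2 was at 0.499 to 0.772 CPM in S2-020 and 0.248 to 0.686 CPM in S2-028, with a log2 fold change of -0.23 and an interval from -1.09 to 0.63. The interval of SNAI2 reaches past a 1.5-fold change on both sides, and that of SNAI1 past 1.5-fold higher in S2-028. TWIST1 was not tested, with 2 reads over the S2-020 libraries and 3 over the S2-028 libraries. Of 21 listed EMT transcription factors, 18 were tested, 5 were higher in S2-020, such as ZEB1, ZEB2, FOXC1 and TCF3, and 2 in S2-028 (ETV1 and SOX4), so ZEB1 and FOXC1, with a log2 fold change of -1.75, were the clearest members. The call of SOX4, whose log2 fold change of 0.59 lies at the threshold, was lost in 4 of the 14 other settings that were tried.

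**Figure D2:**
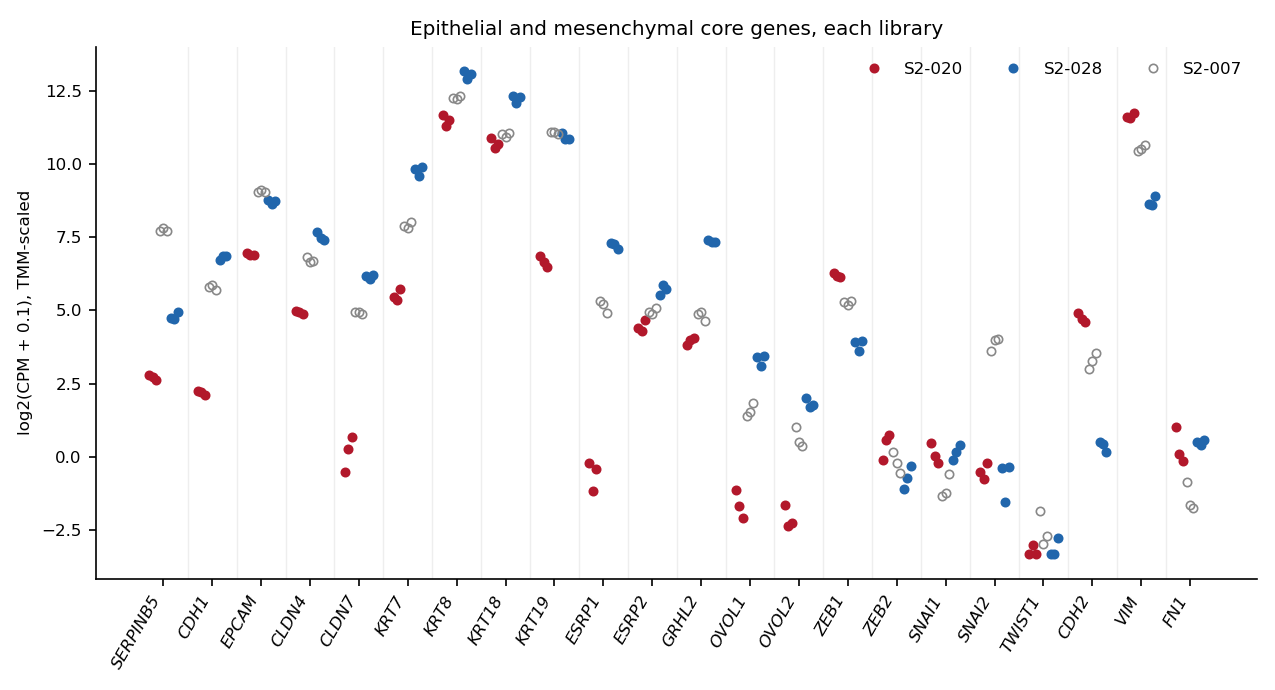
Log2(CPM + 0.1) of the core genes (x) in each of the 3 libraries of S2-020 (red), S2-028 (blue) and S2-007 (open grey circles). Epithelial genes on the left are higher in S2-028, ZEB1, CDH2 and VIM are higher in S2-020, and SNAI1, SNAI2, TWIST1 and FN1 are low in both.

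Junction genes rose over a wide range in S2-028. CDH1, which encodes E-cadherin (chr16:68737292-68835537), was at 4.72, 4.6 and 4.19 CPM in S2-020 and at 104.7, 115.3 and 116.02 CPM in S2-028. The log2 fold change was 4.63 (SE 0.0803, edgeR adjusted p = 5.97e-19), and no S2-020 library came near an S2-028 library. CDH2, the gene of N-cadherin, was the mirror of this, with 30.3, 26.3 and 24.3 CPM in S2-020 and 1.33, 1.27 and 1.03 CPM in S2-028, a log2 fold change of -4.48 (SE 0.137). Of 12 adherens junction genes, 8 were higher in S2-028 and none was called higher in S2-020, with a median log2 fold change of 1.4. JUP, which encodes plakoglobin, rose by 4.19 on the log2 scale (SE 0.092). The catenins that tether E-cadherin to actin did not pass the threshold, with log2 fold changes of 0.14 for CTNNA1 and 0.04 for CTNNB1. Their mRNA therefore differed by less than 1.5-fold between the lines, beside a wide difference in that of E-cadherin.

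EPCAM, an adhesion molecule of epithelia, was already at 124, 118 and 119 CPM in S2-020 and reached 431, 400.3 and 428 CPM in S2-028 (log2 fold change 1.79, SE 0.0503). S2-020 therefore still had epithelial mRNA.

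Among 33 tight junction genes 32 were tested, with a median log2 fold change of 1.43. Of these, 19 were higher in S2-028 and 3 in S2-020, against 12.1% and 10.1% of all tested genes. CLDN7 was at 0.595, 1.11 and 1.52 CPM in S2-020 and at 72.3, 66.7 and 74.4 CPM in S2-028, a log2 fold change of 6.04 (SE 0.163, edgeR adjusted p = 3.18e-16). CLDN4 went from 29.3 to 31.5 CPM up to 170.1 to 205 CPM, and CLDN3 had a log2 fold change of 4.19 (SE 0.113). CLDN2, a claudin that forms cation pores, was at 255, 281 and 228 CPM in S2-020 and at 1645, 1596 and 1483 CPM in S2-028. The claudins did not move as one. CLDN1 was at 434, 404 and 408 CPM in S2-020 and at 201, 185 and 205 CPM in S2-028, a log2 fold change of -1.08 (SE 0.0522), and CLDN14 and the polarity gene PARD3 were also lower in S2-028, with log2 fold changes of -2.96 and -0.59. The PARD3 call rested on a value at the threshold and was lost in 4 of 14 settings. The scaffold genes TJP1 and OCLN did not pass, with log2 fold changes of 0.24 and 0.53.

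Desmosome genes moved less. Of 14 listed, 13 were tested, 3 were higher in S2-028 and 1 in S2-020, against 12.1% and 10.1% of all tested genes. The median log2 fold change was 0.27. The desmosomal cadherins DSC2 and DSG2 rose by 3.25 (SE 0.119) and 1.38 (SE 0.0546) on the log2 scale and the plakophilin gene PKP3 by 1.13, while PERP had a log2 fold change of -0.96 (SE 0.0525).

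The simple keratins were high in both lines and higher in S2-028. KRT19, a ductal keratin, was at 115, 101.1 and 89.2 CPM in S2-020 and at 2114, 1836 and 1830 CPM in S2-028, a log2 fold change of 4.23 (SE 0.0797, edgeR adjusted p = 1.8e-18). KRT7 had the same log2 fold change of 4.23 (SE 0.0886). KRT8 and KRT18, which pair with each other in simple epithelia, were already at 2508 to 3231 CPM and 1486 to 1879 CPM in S2-020, and rose by 1.54 (SE 0.0705) and 1.53 (SE 0.0685) on the log2 scale. Of their transcript sequence, 19% for KRT8 and 29.4% for KRT18 in words of 31 bases also occurs in other genes, such as the pseudogenes KRT8P3 and KRT18P11, so their counts are less certain. KRT5, a keratin of basal cells, went against them, with 24.1, 25 and 30.2 CPM in S2-020 and 0.162, 0 and 0.229 CPM in S2-028. Its pooled counts were 206-fold higher in S2-020 (95% counting interval 138 to 322), and its fitted log2 fold change of -7.68 was -8.35 without S2-028 replicate 3 and -7.07 without replicate 2. Of the 30 keratins listed, 16 were tested, 9 were higher in S2-028 and 2 (KRT5 and KRT86) in S2-020. With genes under 10 counts in any library left out, 6 and 0 remained, against 2830 and 2464 of the 21549 genes tested under that filter.

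A wide difference was seen in a list of 31 further genes of the epithelial state, such as proteins of apical sorting, surface serine proteases and laminin 332. Of these, 26 were higher in S2-028, against 12.1% of all tested genes, and only ITGB4 was called higher in S2-020. The median log2 fold change over the list was 4.15. With genes under 10 counts in any library left out, 20 were higher in S2-028, against 2830 of 21549 genes tested under that filter. RAB25, a GTPase of apical recycling, had 4 reads over the 3 S2-020 libraries and was at 64.5, 56.1 and 61.8 CPM in S2-028. The ratio of its pooled counts was 3473 (95% counting interval 1356 to 12750). Its fitted log2 fold change of 11.61 was 11 without S2-020 replicate 2. Counting intervals cover counting error only, since reads of one PCR product are not separate molecules. MAL2, which carries proteins to the apical membrane, was at 0.222, 0.356 and 0.0689 CPM in S2-020 and at 306, 303 and 281 CPM in S2-028 (log2 fold change 10.36, SE 0.149, and 10.97 without S2-020 replicate 2). ST14, the gene of matriptase, a protease on the surface of epithelial cells, was at 7.71, 6.86 and 7.0 CPM in S2-020 and at 649, 607 and 594 CPM in S2-028. Its log2 fold change of 6.42 (SE 0.0677, edgeR adjusted p = 9.51e-22) came from libraries that did not overlap. LAD1, LAMB3, SCNN1A and FXYD3 did not pass both thresholds, with log2 fold changes of 0.18, 0.49, 0.05 and 1.41.

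ZEB proteins and their relatives bind the E-box CAGGTG, and the letters were searched on both strands of 300-base promoters, 250 bases before to 50 after each start in RefSeq (GRCh38.p14). At least 1 match was present for 24.7% of the 18392 tested genes with an entry. Among DEGs higher in S2-028 the share was 31.2% (706 of 2260), among those at least 4-fold higher 38% (237 of 623), among DEGs higher in S2-020 24.3% (482 of 1983), among those at least 4-fold higher in S2-020 27.8% (88 of 317) and among the remaining tested genes 23.8%. Another E-box, CAGCTG, was present for 24%, 24.2%, 25.2%, 29% and 21.4% in the same order, a comparison chosen after seeing the first. The median GC content of these promoters was 63.7% for DEGs higher in S2-028, 65.7% for those higher in S2-020 and 61.7% for the rest, and its part in the shares was not tested. Of the list of further epithelial genes, 19 of 31 had a promoter entry and 17 of these held CAGGTG. The other epithelial lists held it less often, with 12 of 22 tight junction, 3 of 6 adherens junction and 4 of 9 desmosome promoters. It was present for 4 of 12 keratins and 6 of 12 epithelial transcription and splicing factors. These list counts include members that were not tested, such as KRT75 and KRT79, which held it. Among members higher in S2-028 it was present for 15 of 16 further epithelial, 6 of 13 tight junction and 2 of 2 adherens junction promoters. For desmosome genes, factors and keratins higher in S2-028 it was present for 2 of 2, 3 of 5 and 0 of 2. Among mesenchymal cytoskeleton and surface genes 4 of 26 held it, and among mesenchymal matrix genes 2 of 30. The list of further epithelial genes holds genes known in part for regulation by ZEB1, so it is no independent sample of promoters. The grainyhead motif AACCGGTT was present for 0.212% of tested genes and for none of these 19, and the AP-1 motif TGANTCA for 8.22% of tested genes and 4 of these 19. These matches are letters in a window and not shown binding sites.

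Promoters of 5 genes are shown to set the E-boxes beside the values, with CAGGTG or its reverse complement in capitals. They were chosen after the values were seen: RAB25 (chr1:156060910-156061209, plus strand), CRB3 (chr19:6464021-6464320, plus strand), a tight junction polarity gene at 0.346, 0.499 and 0.276 CPM in S2-020 and 21.2, 16.2 and 18 CPM in S2-028, AP1M2 (chr19:10587263-10587562, minus strand), a clathrin adaptor of epithelia at 0.72, 0.523 and 0.0827 CPM and 40.7, 37.6 and 40.8 CPM, LAD1 (chr1:201399275-201399574, minus strand) as a gene with E-boxes that was not a DEG, at 78.6, 75.3 and 78.8 CPM and 87.2, 89.4 and 88.3 CPM, and MIR200CHG (chr12:6962995-6963294, plus strand).
RAB25: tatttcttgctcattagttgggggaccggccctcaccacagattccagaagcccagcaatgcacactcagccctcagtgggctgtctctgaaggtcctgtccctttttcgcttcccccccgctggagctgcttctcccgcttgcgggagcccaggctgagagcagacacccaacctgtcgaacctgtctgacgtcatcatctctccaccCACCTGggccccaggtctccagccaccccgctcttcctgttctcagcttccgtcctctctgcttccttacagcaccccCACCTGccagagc
CRB3: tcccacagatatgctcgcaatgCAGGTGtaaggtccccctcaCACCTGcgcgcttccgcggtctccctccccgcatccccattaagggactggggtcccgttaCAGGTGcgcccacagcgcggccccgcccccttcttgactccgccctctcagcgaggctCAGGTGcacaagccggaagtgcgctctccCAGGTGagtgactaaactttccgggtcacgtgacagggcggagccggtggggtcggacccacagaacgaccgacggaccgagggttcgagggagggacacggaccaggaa
AP1M2: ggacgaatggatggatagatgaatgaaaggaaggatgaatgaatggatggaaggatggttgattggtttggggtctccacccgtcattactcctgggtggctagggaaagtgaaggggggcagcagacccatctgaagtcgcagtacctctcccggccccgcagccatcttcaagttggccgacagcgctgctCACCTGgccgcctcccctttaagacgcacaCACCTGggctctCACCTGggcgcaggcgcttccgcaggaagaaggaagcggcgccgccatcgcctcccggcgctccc
LAD1: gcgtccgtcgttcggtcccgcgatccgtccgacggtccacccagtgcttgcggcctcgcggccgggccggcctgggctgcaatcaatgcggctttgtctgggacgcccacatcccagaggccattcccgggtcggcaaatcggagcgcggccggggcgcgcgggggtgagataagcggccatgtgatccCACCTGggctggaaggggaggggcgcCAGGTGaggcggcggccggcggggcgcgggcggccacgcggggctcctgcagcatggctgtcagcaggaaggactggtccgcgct
MIR200CHG: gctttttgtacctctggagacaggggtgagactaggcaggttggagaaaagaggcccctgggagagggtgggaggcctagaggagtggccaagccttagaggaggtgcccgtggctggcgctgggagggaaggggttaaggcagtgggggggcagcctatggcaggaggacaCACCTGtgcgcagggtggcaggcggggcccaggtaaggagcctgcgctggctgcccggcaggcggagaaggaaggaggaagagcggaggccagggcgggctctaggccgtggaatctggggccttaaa
RAB25 held 2 matches, at positions -41 and 38 from the start, CRB3 held 5 between -228 and -60, AP1M2 held 3 between -57 and -15, LAD1 held 2 and MIR200CHG held 1. LAD1 thus held the E-box without being a DEG.

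MIR200CHG is the host transcript of miR-200c and miR-141, microRNAs that target ZEB1 mRNA. It had 4 reads over the S2-020 libraries and 97 over the S2-028 libraries, a ratio of 29.6 (95% counting interval 11.2 to 111). All 4 reads came from S2-020 replicate 1, and without it the fitted log2 fold change went from 4.72 to 8.15, against a group at 0, which is no bound. The host was thus very low in both lines, at 0.291 to 0.666 CPM in S2-028. The mature microRNAs, which are shorter than these libraries capture, were not measured, and their sequences in RefSeq are shown with the seed, bases 2 to 8, in capitals. Their seeds are not the same, so they belong to separate seed groups.
miR-200c-3p: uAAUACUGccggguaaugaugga
miR-141-3p: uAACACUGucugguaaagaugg

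About as many mesenchymal genes were lower in S2-028 as gave no call, and few were higher. VIM, the gene of vimentin, was at 3127, 3025 and 3415 CPM in S2-020 and at 395, 385 and 476 CPM in S2-028, a log2 fold change of -2.94 (SE 0.0695, edgeR adjusted p = 4.87e-17). Vimentin mRNA was thus still present in S2-028. In a bulk culture a smaller share of cells with the mRNA and less mRNA per cell cannot be told apart. Of 36 mesenchymal cytoskeleton and surface genes, all tested, 18 were higher in S2-020 and 2 in S2-028, with a median log2 fold change of -0.74, against 10.1% and 12.1% of all tested genes. CAVIN1, a coat protein of caveolae, had a log2 fold change of -3.58 (SE 0.0838), the calcium-binding S100A4 had -2.74 (SE 0.075) and TPM2, a tropomyosin, had -1.92 (SE 0.0536). CAV1, the structural protein of the same caveolae as CAVIN1, was higher in S2-028, with 564, 489 and 499.7 CPM in S2-020 and 912, 863 and 940.3 CPM in S2-028. ENG, a co-receptor of the TGF-beta family, also went against the list, with 0.348 ± 0.104 CPM in S2-020 and 3.01 ± 0.138 CPM in S2-028 (SD, n = 3 libraries). AXL, CD44, NT5E and ITGB1, surface proteins often read as mesenchymal, did not pass, with log2 fold changes of 0.42, 0.49, 0.24 and 0.49.

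Matrix genes gave a like picture. Of 44 listed, 37 were tested, 17 were higher in S2-020 and 3 in S2-028, with a median log2 fold change of -0.54. COL12A1, a collagen of the fibril surface, was at 61.9, 67.6 and 59.3 CPM in S2-020 and at 0.728, 0.697 and 0.702 CPM in S2-028 (log2 fold change -6.48, SE 0.111). THBS1, the gene of thrombospondin 1, was at 1433, 1227 and 1125 CPM in S2-020 and at 128, 135 and 165 CPM in S2-028. LOXL2, which crosslinks collagen, had a log2 fold change of -2.32 (SE 0.066), and FSTL3, an activin antagonist, had -3.54 (SE 0.115). FN1, the usual matrix marker of the mesenchymal state, was low in both lines, with 1.92, 0.986 and 0.813 CPM in S2-020 and 1.33, 1.22 and 1.39 CPM in S2-028, and COL1A2, COL3A1, POSTN, LUM, BGN, FAP and MMP2 were too low to test. The matrix genes higher in S2-028 were COL1A1, LOXL1 and INHBA, all under 5.1 CPM in every library. The call of INHBA was lost without S2-028 replicate 3, with an edgeR adjusted p of 0.0669.

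Integrins and laminins did not shift one way. Of 31 genes, 9 were higher in S2-028 and 5 in S2-020, against 12.1% and 10.1% of all tested genes. The median log2 fold change was 0.1. ITGB6, a partner in the epithelial integrin that binds latent TGF-beta, had a log2 fold change of 5.04 (SE 0.127), and the collagen receptor gene ITGA2 had 2.33 (SE 0.0545). Laminin 332 anchors epithelia to the basement membrane, and its LAMA3 chain rose by 3.11 on the log2 scale (SE 0.0857) while LAMB3 did not pass. ITGB4, a part of the laminin 332 receptor of hemidesmosomes, was lower in S2-028, at 891, 886 and 909 CPM against 1791, 1766 and 1925 CPM in S2-020 (log2 fold change -1.04, SE 0.0444). Its partner ITGA6 rose by 1.61 on the log2 scale. ITGA5, the fibronectin receptor chain, and ITGA10 were lower in S2-028, with log2 fold changes of -1.29 (SE 0.0662) and -4.56 (SE 0.167).

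Proteases of invasion were split between the lines. Of 47 genes of the plasminogen system, matrix proteases and their inhibitors, 38 were tested, 14 were higher in S2-028 and 12 in S2-020. Over all tested genes the shares were 12.1% and 10.1%. PLAU, the gene of urokinase, was at 678, 738 and 785 CPM in S2-020 and at 2809, 2304 and 2951 CPM in S2-028 (log2 fold change 1.87, SE 0.0711). PLAT, the other plasminogen activator, went down from 134, 151 and 137 CPM to 10.6, 10.2 and 6.04 CPM (log2 fold change -3.98, SE 0.134). The activators of plasminogen thus changed in opposite directions. For PLAU, 31% of the exon bases lie under another gene on the other strand. MMP1, an interstitial collagenase, was at 203, 185 and 163 CPM in S2-020 and at 6.62, 7.99 and 6.25 CPM in S2-028, and MMP14, a membrane-bound protease, had a log2 fold change of -2.19 (SE 0.0847). TIMP3, an inhibitor of matrix proteases, was between 1.71 and 2.25 CPM in S2-020 and at 80.2, 91.0 and 63.5 CPM in S2-028. KLK6, a kallikrein, had no read in S2-020 and 684 reads over the S2-028 libraries, at least 278-fold higher against a floor of 3 reads over the 3 S2-020 libraries.

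Markers of the PDAC subtypes did not follow a single axis. Of 25 basal-like markers, 15 were tested, 11 were higher in S2-028 and only S100A2 was called higher in S2-020, with a median log2 fold change of 3.54. VGLL1, a cofactor of TEAD factors, had no read in any S2-020 library and was at 18.9, 20.4 and 20.9 CPM in S2-028, at least 1533-fold higher against the same floor of 3 reads. UCA1, a long noncoding RNA, was at 0.0692, 0.0832 and 0.0689 CPM in S2-020 and at 344, 386 and 319 CPM in S2-028, and its pooled ratio was 4715 (95% counting interval 2945 to 8095). TNS4 and AREG had log2 fold changes of 5.8 (SE 0.106) and 3.11 (SE 0.0646). With genes under 10 counts in any library left out, 6 basal-like markers were called higher in S2-028, against 2830 of 21549 genes tested under that filter. Markers with no read in S2-020, such as VGLL1, entered the main test through S2-028 alone, which favours a call on that side.

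The classical markers were divided. Of 24 listed, 17 were tested, 6 were higher in S2-028 and 4 in S2-020, with a median log2 fold change of 0. CEACAM6, an adhesion protein of gut and pancreas tumours, was at 1.01, 0.523 and 0.386 CPM in S2-020 and at 622, 534 and 509 CPM in S2-028 (log2 fold change 9.76, SE 0.153). AGR2, a secretory disulfide isomerase, had a pooled ratio of 440.5 (95% counting interval 246 to 883), but its 11 reads in S2-020 all came from replicate 2. Without that library the fitted log2 fold change went from 8.72 to 13.45, against a group at 0, which is no bound. LGALS4, a gut galectin, was the reverse, at 112, 95.9 and 76.1 CPM in S2-020 and at 0.324, 0.0929 and 0.0653 CPM in S2-028, a pooled ratio of 592 (interval 415 to 878) in favour of S2-020, and its log2 fold change of -9.2 was -10.19 without S2-028 replicate 1. CLRN3 was at 0.579 to 1.07 CPM in S2-020 with no read in S2-028, and CDH17, an intestinal cadherin, was 34.2-fold higher in S2-020, with a log2 fold change of -5.08 that was -5.89 without S2-028 replicate 2. TFF2, a trefoil factor of gastric mucus, had no read in S2-020 and was at 1.83 to 2.88 CPM in S2-028. CEACAM6 and AGR2 were thus on the side of S2-028, and LGALS4 and CDH17 on that of S2-020.

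Lineage factors were divided as well. Of 37 listed, 32 were tested, 9 were higher in S2-028 and 7 in S2-020, against 12.1% and 10.1% of all tested genes. FOXA3 rose by 4.62 on the log2 scale, while GATA4, GATA6, HNF4G and NKX6-1 had log2 fold changes of -1.12, -0.67, -1.39 and -2.61. Of 14 mucins, 6 were higher in S2-028 and MUC13 was higher in S2-020, with MUC16 and MUC5AC rising by 2.78 (SE 0.262) and 1.98 (SE 0.23) on the log2 scale from below 4 CPM.

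Most ErbB receptor and ligand genes were higher in S2-028. Of 15 listed, 10 were higher in S2-028, against 12.1% of all tested genes, 4 were not called and NRG2 was higher in S2-020, with a median log2 fold change of 1.37. EGFR was at 405, 379 and 368 CPM in S2-020 and at 2267, 2028 and 2123 CPM in S2-028 (log2 fold change 2.47, SE 0.0501), above all 3 S2-007 libraries, which were at 789 to 805 CPM. ERBB3, the receptor that signals through its partners, was at 6.65, 5.63 and 5.43 CPM in S2-020 and at 110.1, 108 and 96.4 CPM in S2-028. The EGFR ligand genes AREG and TGFA had log2 fold changes of 3.11 and 2.37 (SE 0.0643).

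Of 72 genes of the ephrin, SLIT-ROBO, netrin and semaphorin families, 71 were tested, 24 were higher in S2-028 and 10 in S2-020. EPHB6, an ephrin receptor that lacks kinase activity, was at 0.277, 0.0713 and 0.331 CPM in S2-020 and at 194, 145 and 178 CPM in S2-028, and EPHB2 had a log2 fold change of 4.52 (SE 0.117). The ligand gene EFNB2 and SEMA3C were lower in S2-028, with log2 fold changes of -1.68 (SE 0.0541) and -1.84 (SE 0.0829).

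TGF-beta family genes showed 9 higher in S2-028 and 13 higher in S2-020 among 52 tested of 55 listed, with a median log2 fold change of -0.03. INHBB, an activin subunit, was at 108, 104 and 105 CPM in S2-020 and at 5.96, 7.74 and 8.57 CPM in S2-028, and BAMBI, a decoy receptor, had a log2 fold change of -2.77 (SE 0.139). LTBP3, which stores latent TGF-beta, was at 162, 155 and 140.3 CPM in S2-020 and 682, 624 and 566 CPM in S2-028, and SMAD3 rose by 0.99 on the log2 scale (SE 0.0517). Among 19 YAP, TEAD and vestigial-like genes, 18 were tested, 4 were higher in S2-028 and 5 in S2-020, against the same 12.1% and 10.1%. CCN2, a YAP target, was at 84.4, 82.1 and 66.7 CPM in S2-020 and at 13.3, 16.7 and 16.8 CPM in S2-028, whereas VGLL3 rose by 4.57 on the log2 scale (SE 0.109) and VGLL1 was found in S2-028 alone of the pair.

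Most tested genes of antigen presentation by MHC class II were higher in S2-028 than in S2-020. CD74, the invariant chain, was at 0.997, 1.01 and 0.8 CPM in S2-020 and at 299, 288 and 296 CPM in S2-028 (log2 fold change 8.28, SE 0.084, edgeR adjusted p = 9.12e-22). HLA-DRA had a pooled ratio of 309 (95% counting interval 195 to 522). Of 17 genes listed, 14 were tested, 9 were higher in S2-028 and HLA-DMB was higher in S2-020, at 38.1, 33.2 and 27.8 CPM against 11.2, 13.9 and 10.9 CPM. With genes under 10 counts in any library left out, 5 of the listed genes were higher in S2-028, against 2830 of 21549 genes tested under that filter. The HLA-DR genes are polymorphic and similar to each other, and reads of one can count for another.

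Interferon-stimulated genes were not all raised. Of 40 listed, 39 were tested, 17 were higher in S2-028 and 7 in S2-020. MX2 and BST2, antiviral proteins, rose by 4.09 (SE 0.131) and 2.08 (SE 0.0751) on the log2 scale, while IFI27 and IFITM1 had log2 fold changes of -2.69 (SE 0.133) and -2.31 (SE 0.129). IFITM1 and IFITM3 share 37.8% and 26.4% of their sequence words with other genes. Of 32 chemokines and cytokines, 22 were tested, 7 were higher in S2-028, such as CXCL5 with a log2 fold change of 4.28 and CXCL16 with 2.77, and IL32 and TNFSF10 were higher in S2-020. Among 32 proliferation genes, none was called higher in S2-028 and 8 were higher in S2-020 by modest amounts, such as CCND1, the gene of cyclin D1, at 1059, 1020 and 1052 CPM against 531, 425 and 573 CPM, and PLK1 with a log2 fold change of -0.86. The median over the 32 genes was -0.06. Of the lists of other cell types, no immune marker was called, and CLDN5, COL1A1, PDGFRB and SYP were the called endothelial, fibroblast and acinar or islet members, all under 5.1 CPM. Without S2-020 replicate 2 or S2-028 replicate 3 PDGFRB was not called, and without S2-020 replicate 3 SYP was not.

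**Figure D3:**
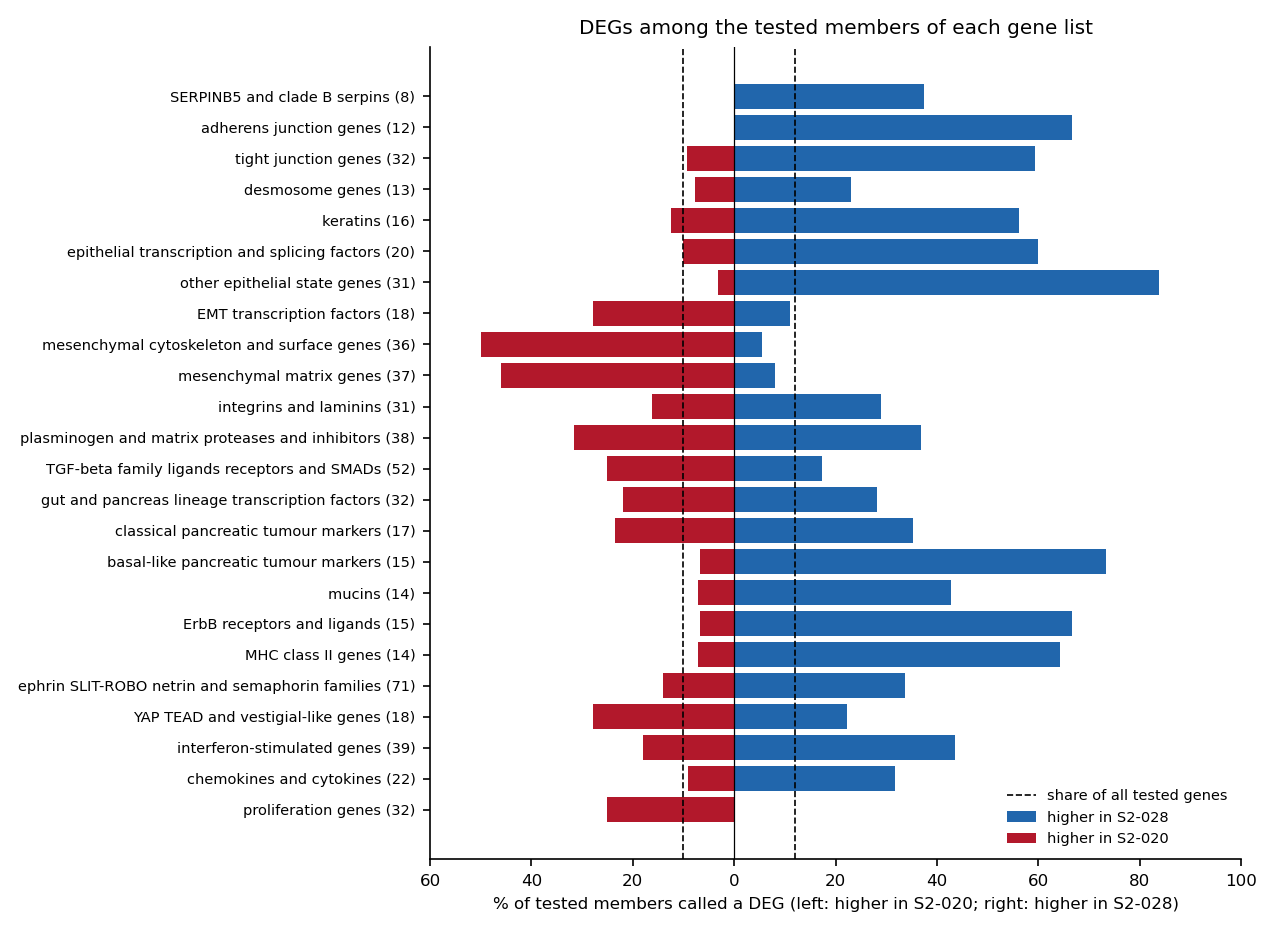
Percent of the tested members of each gene list with at least 8 tested genes (number tested in brackets) that were DEGs, higher in S2-028 to the right (blue) and higher in S2-020 to the left (red). Dashed lines mark the shares over all tested genes, 12.1% and 10.1%. Most epithelial lists reach far right, the desmosome list less so, and the basal-like, ErbB and MHC class II lists also reach far right. Both mesenchymal lists reach far left, and protease and lineage lists reach both ways.

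Among protein-coding DEGs whose libraries did not overlap and whose mean log2 CPM reached 3, the 10 largest rises were CEACAM6, SLC34A2, CD74, ESRP1, SPNS2, MYO1D, PCDH1, ST14, EEF1A2 and CLDN7, with log2 fold changes between 6.04 and 9.76. SLC34A2, a phosphate transporter of epithelia, was at 0.263, 0.285 and 0.51 CPM in S2-020 and at 198, 209.7 and 186 CPM in S2-028. EEF1A2, an elongation factor of muscle and neurons, was at 263 to 297 CPM in S2-028 and no higher in S2-007 (3.18 to 3.73 CPM) than in S2-020 (2.92 to 3.85 CPM). The 10 largest falls were ANPEP, DPYSL3, CAVIN2, AKR1C1, ANXA6, AKR1C2, AKR1C3, EFR3B, ALDH1L2 and MMP1. ANPEP, the gene of aminopeptidase N, a brush border enzyme also found on mesenchymal cells, was at 606, 624 and 797 CPM in S2-020 and at 0.129, 0 and 0.424 CPM in S2-028. Its log2 fold change of -11.86 was -13.34 without S2-028 replicate 3 and -11.24 without replicate 2. DPYSL3, a regulator of the cytoskeleton, went from 1552, 1588 and 1474 CPM to 5.54, 3.87 and 5.58 CPM (log2 fold change -8.28, SE 0.0995). CAVIN2 joined CAVIN1 among caveolar coat genes that were lower in S2-028, at 292, 252 and 228 CPM in S2-020 and 1.65, 1.49 and 1.37 CPM in S2-028. AKR1C1 and AKR1C2 share 31.8% and 45.5% of their sequence words with other genes, mainly each other, so their counts can mix.

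The level of S2-007 was placed relative to the other lines for each DEG, on the log2 CPM scale, with 0 at S2-020 and 1 at S2-028. It was nearer S2-028 for 3261 of 5788 DEGs (56.3%), and it lay between the lines for 1912 of those higher in S2-028 and 1574 of those higher in S2-020. For the 51 called members of the junction and other epithelial lists that were higher in S2-028, S2-007 was nearer S2-028 for 40 and the median position was 0.738. Among the 35 mesenchymal genes higher in S2-020 it was nearer S2-028 for 23, with a median position of 0.723. S2-007 lay between the lines for 36 of the 51 epithelial genes but for only 15 of the 35 mesenchymal genes. CDH1 at 51.9 to 57.8 CPM, ZEB1 at 36.4 to 39.7 CPM and VIM at 1398 to 1595 CPM in S2-007 were all between the other lines, with no overlap. GRHL2, at 24.6 to 30.8 CPM in S2-007, was closer to S2-020. S2-007 lay outside the pair for other genes. SNAI2 was at 12.2 to 16 CPM there and below 1 CPM in both other lines, MMP1 was at 4733 to 5489 CPM, SERPINE2 at 432 to 561 CPM against at most 10.6 CPM in the other lines, and CLDN2 was at 118 to 149.9 CPM, below both. The position of S2-007 is a description, since these genes were chosen by their difference between the other lines.

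**Figure D4:**
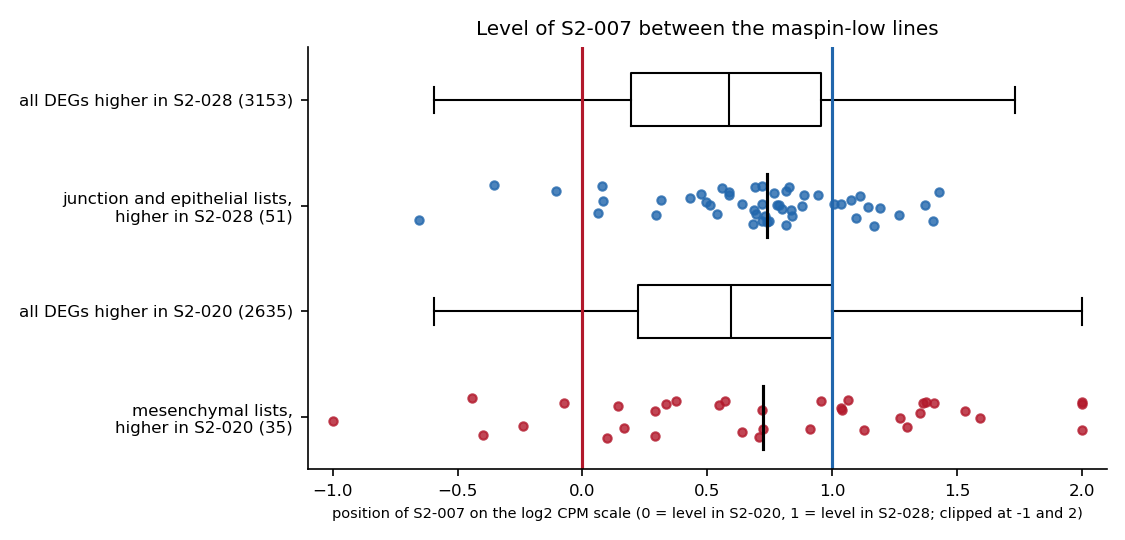
Position of the mean level of S2-007 for DEGs on the log2 CPM scale, where 0 is the mean of S2-020 (red line) and 1 the mean of S2-028 (blue line). Boxes show the quartiles of all DEGs with whiskers at percentiles 5 and 95, dots are single genes of the lists, and black bars are medians (0.587, 0.738, 0.594 and 0.723 from top to bottom). Values are clipped at -1 and 2.

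Part of the difference followed position in the genome. On chromosome 13, 205 of 505 tested genes (40.6%) were higher in S2-020 and 26 (5.15%) in S2-028, with a median log2 fold change of -0.58. Chromosome 16 came next on that side, with 19.9% higher in S2-020. Shares higher in S2-028 were 23.2% on chromosome 22, 21.5% on chromosome X and 19.4% on chromosome 17. In blocks of 50 consecutive tested genes, 14 of 508 had a median change of at least 1.5-fold, 8 down and 6 up, and they held 2.76% of the genes in blocks. The lowest medians were -0.98 for chr13:110307284-114272723, where 27 of 50 genes were higher in S2-020, and -0.84 for chr13:99981784-110307157. GAS6, the ligand of AXL, lies in the first and went from 47.2, 43.1 and 42.8 CPM to 0.955, 2.07 and 1.14 CPM. On the other side, the median was 0.85 for chrX:102769153-108697545, with 30 of 50 genes higher in S2-028, and 0.73 for chr22:20148416-21952848, with 26 of 50. TCEAL1 in the X block was at 13.5, 12.4 and 13.7 CPM in S2-020, 50.3, 52.1 and 57.1 CPM in S2-028 and 16.3 to 18.6 CPM in S2-007. Across that X block the median difference was 1.1 between S2-028 and S2-007 and 0.17 between S2-020 and S2-007, and for the lowest block of chromosome 13 it was -0.68 and 0.2. In both regions S2-028 was thus further from S2-007 than S2-020 was. DNA copy number was not measured here.

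A block of chromosome 16 (chr16:67842320-70439100) held CDH1. Its median log2 fold change was -0.78, with 30 of 50 genes higher in S2-020, such as SLC12A4 with a log2 fold change of -1.86. The 3 genes of the block that were higher in S2-028 were CDH1, its neighbour CDH3, which encodes P-cadherin, at 0.886, 1.19 and 1.08 CPM in S2-020 and 3.93, 4.58 and 4.47 CPM in S2-028, and ESRP2 (chr16:68229033-68236127). All 3 are epithelial genes, and they rose in a stretch where most called genes fell. Against S2-007 the block was low by 0.18 in S2-028 and high by 0.59 in S2-020 at the median, so here S2-020 was the further line.

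**Figure D5:**
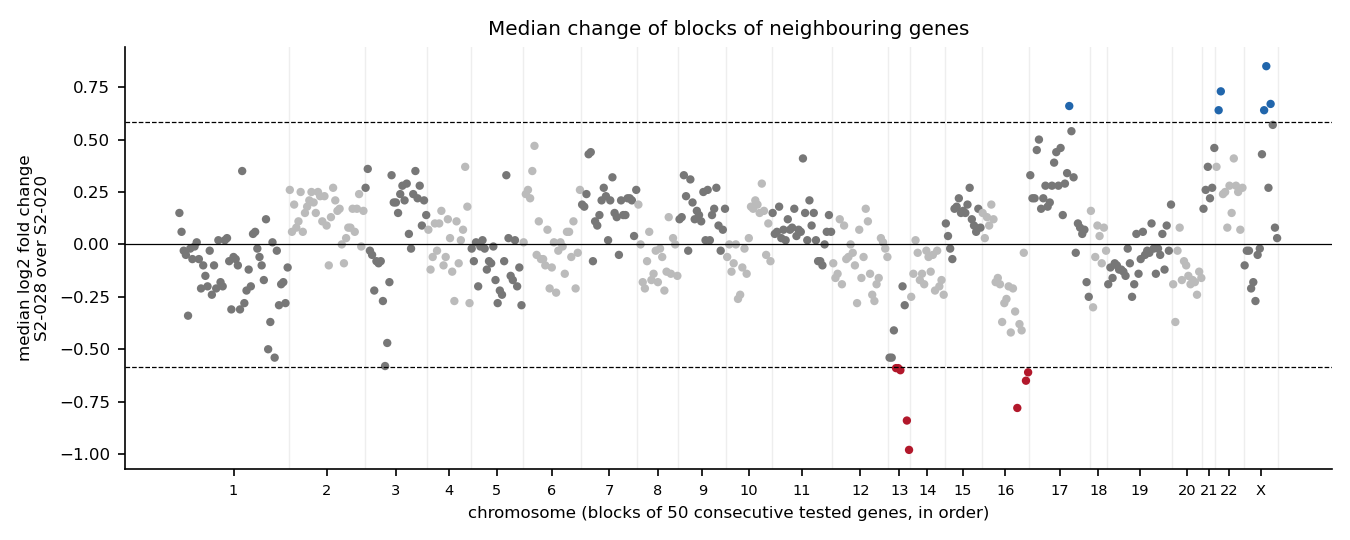
Median log2 fold change of S2-028 over S2-020 (y) in 508 blocks of 50 consecutive tested genes, in order along the chromosomes (x). Dashed lines mark 1.5-fold, and the 14 blocks past them are coloured, with 8 red blocks on chromosomes 13 and 16 and 6 blue blocks on chromosomes 17, 22 and X.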

How the data were processed

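Poly(A)-selected, strand-specific RNA of the SUIT-2 sublines was sequenced, and the authors deposited whole-number read counts per gene, which were used as deposited. Per the submitters' processing notes the tools were Trimmomatic 0.39, BWA 0.7.17, SAMtools 1.12 and edgeR 3.16.5. The counting tool, strand setting and treatment of multi-mapping reads are not given in the sources used here. BWA does not join a read across an intron. A further 18 columns of normalized signal that the authors deposited were not used, and 2 rows that name no gene were dropped. Genes were kept by filterByExpr (minimum count 10, minimum total 15), scaled by TMM and tested with edgeR 4.0.16 (limma 3.58.1, R 4.3.3) by the quasi-likelihood test, with Benjamini-Hochberg adjustment over all tested genes. DEGs were called at adjusted p under 0.05 where the fold change was 1.5-fold or more either way (0.585 on the log2 scale). Levels of S2-007 were scaled with those of the other lines, without a test. The steps were tested on simulated data.

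Named genes were a core set, the 10 largest changes per direction, up to 4 called members per list and direction with the smallest adjusted p, and genes of the named blocks. Other genes were chosen after their values were seen. Some genes of the lists are not reported here. The members and the 28 gene lists were chosen with earlier results of these data known, and 10 further lists were added after values were seen. Libraries of one line were not duplicates (mean chi-square per gene 7.1 to 11.8 within lines, 213 to 237 between them). Alternatives were DESeq2 1.42.0 and its size factors, upper-quartile scaling, 2 other filters, a likelihood ratio test, a test against 1.5-fold, a fit over all 9 libraries, the replicate number as a block and leaving out each library. Python 3.11.15, pandas 2.3.3 and matplotlib 3.10.9 were used for sequences and figures.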

Additional observations from a re-analysis of the deposited data

How the results depend on the processing

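The count of DEGs stayed between 5294 and 6074 under other scalings, filters and tests and between 5507 and 5723 with 1 library left out. Only a test against a 1.5-fold change moved it further, to 3638 DEGs, 2005 higher in S2-028 and 1633 higher in S2-020, since it asks for more than a change from 0. Over DEGs whose mean log2 CPM reached 3, S2-007 was nearer S2-028 for 57.8% of DEGs in place of 56.3%, and the cause was not tested. Upper-quartile scaling moved the median of all genes by 0.052 and the share of DEGs higher in S2-028 from 54.5% to 59.4%. Without the genes of the 14 blocks, an alternative chosen after seeing the data, 5435 DEGs remained in the count, 2991 and 2444 by direction. Fitted with the replicate number as a block, 5716 genes were DEGs, 3096 and 2620 by direction, and no other main count left its range of 1.5-fold. Deviations of same-numbered libraries of S2-020 and S2-028 correlated at 0.025, 0.036 and 0.035, so no pairing by number was seen between these lines. With 3 libraries per line, these values cannot settle whether libraries shared a batch. Of 224 called genes named by the rule or chosen after values were seen, 217 kept their call in each setting that tested them. The test against 1.5-fold is not included, and the filter of 10 counts in every library does not reach the lowest genes. PARD3, SOX4, INHBA, PDGFRB, SYP, PCDHGA12 and HOXD1 lost the call in at least 1 setting. Many of the 224 were picked for a small adjusted p or a large change, which favours keeping a call. Of all DEGs, 89.6% to 90.9% kept call and direction with 1 library left out, and 88.1% under the filter of 10 counts. The uncalled genes SNAI1, SNAI2 and FN1 changed sign with 1 library left out, where SNAI1 lay between -0.11 and 0.27, SNAI2 between -0.43 and 0.13 and FN1 between -0.15 and 0.53, with -0.01 and -0.1 for SNAI1 and -0.07 for FN1 among the reversed values. Depth limits genes such as RAB25 and MIR200CHG, with 4 reads in S2-020.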

Other observations

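The gene groups below were picked after values were seen, so their counts describe these libraries and are no test. Counts of replication-dependent histone genes, whose mRNAs mostly lack a poly(A) tail, were higher in S2-028 for 30 of 47 tested of 65 listed. None was called higher in S2-020, and the median log2 fold change was 2.05. The libraries were poly(A)-selected, so a difference in the amount of these mRNAs and one in the share captured cannot be told apart. H1-2, a linker histone, was at 7.64, 8.25 and 6.51 CPM in S2-020, 382, 364 and 292 CPM in S2-028 and 11.9 to 12.1 CPM in S2-007. These genes resemble each other, and H4C15 shares 100% of its sequence words with other genes. Of the 32 proliferation genes none was called higher in S2-028 and 8 were higher in S2-020. A link between these and the histone genes was not tested.

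In the protocadherin alpha cluster, cell surface cadherins best known from neurons, 13 of 15 genes were higher in S2-028, with a median log2 fold change of 3.1, while 4 of 31 tested genes of the beta and gamma clusters were. PCDHAC2, the one with the smallest adjusted p, was at 1.65, 1.38 and 1.32 CPM in S2-020 and 15.9, 14.1 and 13.1 CPM in S2-028. The alpha genes share their last exons, so one transcript can count for several. All 8 tested HOXC genes, which set position along the body axis, were higher in S2-020, with a median log2 fold change of -2.91, whereas 5 of 10 HOXA and 5 of 9 HOXB genes were higher in S2-028. In HOXA 1 gene was higher in S2-020, and of 6 tested HOXD genes 1 was higher in each line. HOXC8 was at 6.89 to 7.27 CPM in S2-020, 0.502 to 0.816 CPM in S2-028 and 6.45 to 7.25 CPM in S2-007.

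Enzymes that reduce ketosteroids and aldehydes were far lower in S2-028. AKR1C3 was at 158, 176 and 155 CPM in S2-020 and 3.46, 6.16 and 4.18 CPM in S2-028, and all 3 tested AKR1C genes were DEGs. Of 21 targets of the oxidative stress factor NRF2, 11 were higher in S2-020 and 4 in S2-028, where GPX2, a glutathione peroxidase of the gut, rose by 8.44 on the log2 scale (SE 0.145). The lowest member of the NRF2 list was AKR1C1, with a log2 fold change of -6.56, so this count overlaps that of the AKR1C genes. Of 22 genes of amino acid transport and serine synthesis, 9 were higher in S2-020, among them both chains of the large amino acid transporter. SLC7A5 was at 3859, 3271 and 3201 CPM in S2-020 and 510.4, 386 and 570.1 CPM in S2-028, and SLC3A2 had a log2 fold change of -2.05 (SE 0.0966).

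Single genes with wide differences were TGM2, a transglutaminase, with a log2 fold change of 4.95 (SE 0.0815), and ABCB1, a drug efflux pump, at 26.2 to 33 CPM in S2-020 and 0.392 to 0.696 CPM in S2-028. IGF2, a growth factor, was at 4872 to 5230 CPM in S2-020 and 1019 to 1122 CPM in S2-028. Of the IGF2 sequence words 41.2% also occur in other genes, and 44.4% of its exon bases overlap other genes, so its counts are less certain.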
